A study of Mus musculus with 21 samples.

Results

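The long-read transcripts of sperm, oocytes and preimplantation embryos could be assigned to 10917 mouse genes. A chosen set of 10 of these, which encode parts of the sperm tail, is described here. Other genes of the tail are compared with it below. The set holds Odf1 and Odf2 of the outer dense fibres, Akap3, Akap4, Fscb and Cabyr of the fibrous sheath, Smcp of the mitochondrial sheath, and Tekt1, Tekt2 and Spag6 of the axoneme. They were chosen by name, and their transcripts were taken by exon overlap on the same strand with the GENCODE vM21 annotation of mm10. All 10 had at least 1 transcript, and together they held 20 of the 22612 transcripts merged over the stages.

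The sperm were DBA/2J cells from the epididymis, the oocytes were metaphase II cells of C57/BL6J females, and the embryos came from those females mated with DBA/2J males. The females, 3 to 5 weeks old, were superovulated with 7.5 IU of PMSG and 7.5 IU of hCG, and oocytes were taken 20 h after hCG. Embryos were lysed at 24 to 26 h (1-cell), 46 to 48 h (2-cell), 54 to 58 h (4-cell), 68 to 70 h (8-cell) and 94 to 96 h (blastocyst), after culture in KSOM. Each of the 7 stages had 2 short-read libraries, each from pooled cells amplified by Smart-seq2, and 1 long-read pool made from both batches. Levels are TPM, a measure of each transcript's share of the library corrected for its length, summed over the transcripts of a gene. TPM keeps no read depth, so the counting precision of the low values is unknown. The values are shares of bulk RNA, so fewer cells of a type and less RNA per cell cannot be told apart.

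The sperm tail is built around an axoneme of microtubules with a central pair, along which dynein motors drive bending. Tektins run inside or along the doublet microtubules, and Spag6 encodes a protein of the central apparatus. Outer dense fibres and, further out, the mitochondrial sheath of the midpiece or the fibrous sheath of the principal piece surround the axoneme. The genes are transcribed late in spermatogenesis, mainly in spermatids, and mature sperm are thought to carry remnants of these messages. Odf2 also encodes a centriole component found in many cell types, and tektins and Spag6 serve motile cilia as well.

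The labels were checked with marker genes. The 6 sperm markers (protamines, transition proteins, Gapdhs and Ldhc) summed to 13792 and 13461 TPM in the sperm libraries, and 6 of 6 were called higher there. The sperm libraries also held transcripts of other cells: 5 leukocyte markers summed to 7338 TPM in replicate 1 and 3187 TPM in replicate 2, the 3 of 4 red cell genes with a merged transcript to 2141 and 4790 TPM, and the 4 of 7 such epididymal genes to 2047 and 345 TPM. Of the epididymal genes, Crisp1 alone stood at 2006 and 335 TPM in sperm, Lcn8 at 8.01 and 2.19 TPM and Cst11 at 8.73 and 2.70 TPM. Defb42 went the other way, with 24.4 and 4.33 TPM in sperm, 36.2 TPM in 2-cell replicate 2 and 45.7 and 41.1 TPM in 4-cell. Most of the red cell sum was Hba-a1, at 1803 and 4384 TPM in sperm. Hba-a1 was not confined to sperm, with 368 TPM in 2-cell replicate 2 and 95.5 and 145 TPM in 4-cell. Hbb-bs (161 and 164 TPM in sperm) and Hbb-bt (177 and 243 TPM) reached no more than 1.95 TPM elsewhere. Lyz2, a lysozyme of macrophages and neutrophils, stood at 6151 and 1519 TPM in sperm and at no more than 6.90 TPM in any other library. The 5 markers of earlier germ cells summed to 363 and 107 TPM in sperm, against 255 and 1513 TPM in oocytes. Like 8 of the 10 flagellum genes, this sum was higher in sperm replicate 1. Of these 5 markers, 1 was called higher in sperm than in the mean of the 6 other stages and 2 lower. Over all features, 24.4% were called higher and 21.1% lower in that comparison. The 6 cumulus cell markers and the 4 Sertoli and Leydig cell markers had no merged transcript. The 5 markers of the 2-cell stage summed to 20.2 TPM in 2-cell replicate 1 and 332 TPM in replicate 2, and the lower of these sums was also below those of the 4-cell libraries (32.9 and 36.8 TPM). The part of the other cells in the sperm values of the flagellum genes was not tested.

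Sequence around the starts is shown because 5 of the 8 genes with a promoter in the RefSeq table (GRCm38.p6) share a motif of 8 letters close to the start of their sperm transcripts. The motif, TGATGTCA, was noticed on reading the windows and was therefore chosen with them in view. Odf1 and Cabyr had no entry in the table. The 30-base windows run 5′ to 3′ along the gene's strand, with the motif in capitals.
Spag6 (chr2:18698915-18698944, plus strand): atcgaccattgTGATGTCAtgcctgggact
Smcp (chr3:92589031-92589060, minus strand): ggagagtattaTGATGTCAtaaaagagctg
Akap3, distal match (chr6:126853065-126853094, plus strand): tatagaaacagTGATGTCActagctgcaat
Akap3, proximal match (chr6:126853086-126853115, plus strand): agctgcaattcTGATGTCActccctagtgc
Fscb (chr12:64474931-64474960, minus strand): agaattggttgTGATGTCAcagacccttga
Akap4, distal start (chrX:7067469-7067498, plus strand): tatagaaacagTGATGTCAtgaattttaag

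Counted from the nearest 5′ end of a sperm long-read transcript, the motif began at -48 in Spag6, -50 in Smcp, -48 and -69 in Akap3, -57 in Fscb and -9 in Akap4. Over all 32851 promoters of the table, 3.62% held TGATGTCA on either strand within the window from 250 bases before the start to 50 after. The 8 genes have 15 promoters in the table, and 5 of these (33.3%) held a match. Odf2, Tekt1 and Tekt2 held none. Of 5 further motifs, searched on both strands in the 250 bases before the start, the full cyclic AMP response element TGACGTCA and TATAAA were found in none of the 8 genes. These 2 were present in 1.55% and 12.4% of all promoters. The shorter TGACGT, which is contained in TGACGTCA, was found in 2 of the 15 promoters, both of Tekt1, against 6.47% of all promoters. GTTGCC, part of the site of RFX factors, was found in 4 of the 15 (26.7%), which belong to the axonemal genes Spag6, Tekt1 and Tekt2, against 10.4% of all promoters. CCAAT was found in 6 of the 15, of Odf2, Akap3, Akap4, Fscb and Tekt1, against 33.8% of all promoters. Promoters of 1 gene can overlap and are not independent. A match is a run of letters and does not show that a factor binds there.

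**Figure D1:**
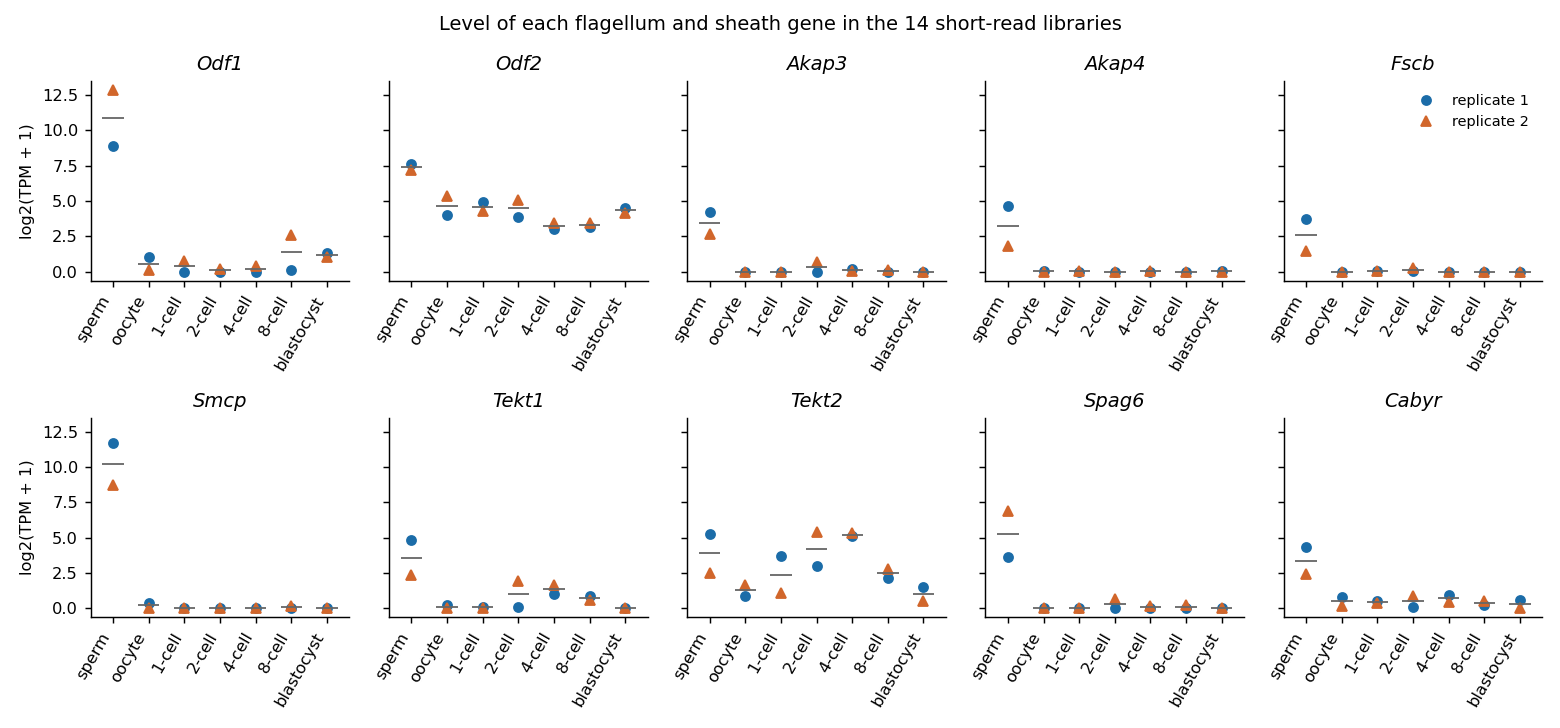
Level of each of the 10 genes in the 14 short-read libraries, as log2(TPM + 1), with circles for replicate 1, triangles for replicate 2 and a bar at the mean of the 2. For all genes but Tekt2 both sperm libraries lie above the 12 others, and Odf2 and Tekt2 are the genes with levels well above 0 outside sperm.

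For 9 of the 10 genes, both sperm libraries lay above all 12 other libraries, and the exception was Tekt2. The share of all features with this property was not counted, so the 9 of 10 only describes the set. By the test used below, 24.4% of all features were called higher in sperm than in the mean of the 6 other stages. Together the 10 genes took 0.415% and 0.808% of all TPM in the sperm libraries and at most 0.00807% in any other library. The background beside these levels is the oocyte and the embryos, where Akap3, Akap4, Fscb, Smcp, Spag6 and Cabyr did not reach 1 TPM in any library.

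Among the outer dense fibre genes, Odf1, which encodes the main protein of the fibres, stood at 485 TPM in sperm replicate 1 and 7373 TPM in sperm replicate 2. It ranked at place 233 and place 14 among the features with a TPM above 0 in these libraries. Outside sperm it was listed at 0 in 3 of 12 libraries, its median was 0.220 TPM, and its highest value was 5.03 TPM in 8-cell replicate 2 beside 0.112 TPM in the other 8-cell library. Blastocysts, at 1.45 and 1.06 TPM, were the only stage besides sperm with both libraries above 1 TPM. On the log2(TPM + 1) scale, sperm exceeded the mean of the 6 other stages by 10.26 (SE 0.80; limma, adjusted p = 1.3e-07).

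Odf2 was the gene with the most even level across the stages. It stood at 197 and 146 TPM in sperm, 14.8 and 39.4 TPM in oocytes, 29.0 and 18.4 TPM in 1-cell, 13.5 and 33.4 TPM in 2-cell, 6.95 and 10.0 TPM in 4-cell, 8.06 and 9.93 TPM in 8-cell, and 22.1 and 16.8 TPM in blastocysts. Sperm were therefore highest and did not overlap with any other stage, while the 4-cell and 8-cell libraries were the lowest and overlapped with each other. The difference between sperm and the mean of the others was 3.31 on the log2 scale (SE 0.57; limma, adjusted p = 0.00026). None of the 5 steps from oocyte to blastocyst passed the test for Odf2.

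The fibrous sheath genes were low in sperm compared with Odf1 and absent or nearly so elsewhere. Akap4, the most abundant anchoring protein of the sheath, which binds protein kinase A, stood at 24.4 and 2.51 TPM in sperm. Its highest value elsewhere was 0.0349 TPM, and it was listed at 0 in 8 of 12 libraries. Akap3, a partner of Akap4 in the sheath, stood at 17.3 and 5.48 TPM in sperm and at no more than 0.592 TPM elsewhere, with 8 of 12 libraries at 0. Cabyr, a calcium-binding protein of the sheath, stood at 19.7 and 4.27 TPM in sperm. It was above 0 in every other library but stayed between 0.0371 and 0.947 TPM there. Fscb, a protein of the sheath that binds Cabyr, stood at 12.1 and 1.75 TPM in sperm and reached 0.173 TPM elsewhere. The fitted differences from the mean of the other stages were 3.23 for Akap4 (SE 0.49), 3.36 for Akap3 (SE 0.38), 2.91 for Cabyr (SE 0.47) and 2.56 for Fscb (SE 0.42), with limma adjusted p-values between 5.6e-06 and 0.00020. Because the other stages are near 0, these differences depend on the pseudocount of 1 and understate the fold. All of these genes stayed below 1 TPM outside sperm and entered the test through their sperm values alone. The p-values are therefore not separate evidence that they are higher in sperm. On the log2 scale the SD of the 2 sperm libraries was 2.02 for Akap4, 1.06 for Akap3, 1.39 for Cabyr and 1.59 for Fscb, above the SE of each.

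Smcp, a cysteine-rich protein of the mitochondrial sheath, stood at 3313 and 418 TPM in sperm, at place 28 and place 375 among the features above 0. Outside sperm it was listed at 0 in 10 of 12 libraries, with 0.326 TPM in oocyte replicate 1 and 0.123 TPM in 8-cell replicate 2. Its difference from the mean of the other stages was 10.15 (SE 0.58; limma, adjusted p = 9.8e-09). Smcp stayed below 1 TPM outside sperm and so entered the test through sperm alone. The SE comes from a spread shared by all stages, most of which lie near 0 for this gene. On the same scale its 2 sperm libraries had an SD of 2.11, so the p-value does not show how well they agreed. Smcp and Odf1 were thus the 2 genes of the set with the highest sperm levels, and each was highest in a different replicate.

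Among the axonemal genes, Spag6 stood at 11.2 and 119 TPM in sperm and at no more than 0.580 TPM in the other libraries, 8 of which were at 0. Its difference was 5.17 (SE 0.57; limma, adjusted p = 4.6e-06). Like the fibrous sheath genes, Spag6 stayed below 1 TPM outside sperm and entered the test through sperm alone. The SD of its 2 sperm libraries was 2.34 on the log2 scale. The related gene Spag6l on another chromosome stood at 13.8 and 3.67 TPM in sperm, so the replicates were ordered in the opposite way. Of the 31-base words in the GENCODE transcripts of Spag6, 2.51% also occurred in those of Spag6l, and 1.86% the other way round, and short reads from these stretches can be divided between them in an uncertain way.

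Tekt1 stood at 27.6 and 4.07 TPM in sperm. Elsewhere it reached 2.77 TPM in 2-cell replicate 2 and 2.22 TPM in 4-cell replicate 2, beside 0.0754 and 0.983 TPM in the other library of each stage. Its difference between sperm and the others was 3.04 (SE 0.56; limma, adjusted p = 0.00047).

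Tekt2 was the exception of the set. It stood at 38.0 and 4.73 TPM in sperm, 0.823 and 2.2 TPM in oocytes, 12.2 and 1.08 TPM in 1-cell, 6.91 and 42.2 TPM in 2-cell, 33.7 and 38.8 TPM in 4-cell, 3.52 and 5.84 TPM in 8-cell, and 1.81 and 0.418 TPM in blastocysts. The 4-cell libraries agreed closely and lay among the highest, the 2 sperm libraries differed widely, and sperm overlapped with every stage from 1-cell to 8-cell. The difference between sperm and the mean of the others was 1.14 (SE 0.82; limma, adjusted p = 0.26). It turned to -0.24 without sperm replicate 1 and was 2.53 without sperm replicate 2.

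**Figure D2:**
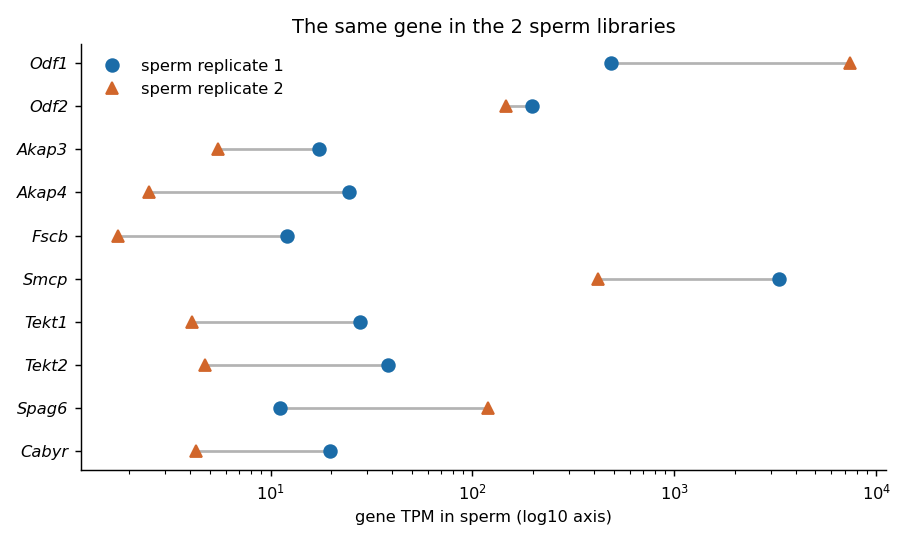
TPM of the 10 genes in sperm replicate 1 (circles) and sperm replicate 2 (triangles) on a log10 axis. Odf1 and Spag6 are higher in replicate 2, and the other 8 genes are higher in replicate 1.

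The 2 sperm libraries disagreed on nearly every gene of the set, and in both directions. Odf1 was 15.2-fold and Spag6 10.7-fold higher in replicate 2. The other 8 genes were higher in replicate 1, from 1.35-fold for Odf2 to 9.72-fold for Akap4. Smcp was 7.93-fold, Tekt2 8.03-fold, Fscb 6.90-fold and Tekt1 6.78-fold higher in replicate 1. Over all features with at least 1 TPM in a sperm library, the median of replicate 2 minus replicate 1 was 0.12 on the log2 scale. The median SD between the libraries of a stage was 0.745 for sperm, second to 0.978 for 2-cell, and was 0.191 for 4-cell, so a sperm or 2-cell level is less certain than a 4-cell level. Prm2, the protamine with the highest mean in sperm, stood at 9070 and 869 TPM, while Tnp2 stood at 2448 and 6336 TPM, so the sperm markers were also ordered in both ways. The leukocyte and epididymal sums were higher in replicate 1 and the red cell sum in replicate 2. Whether the cell mixture moved the flagellum genes was not tested.

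**Figure D3:**
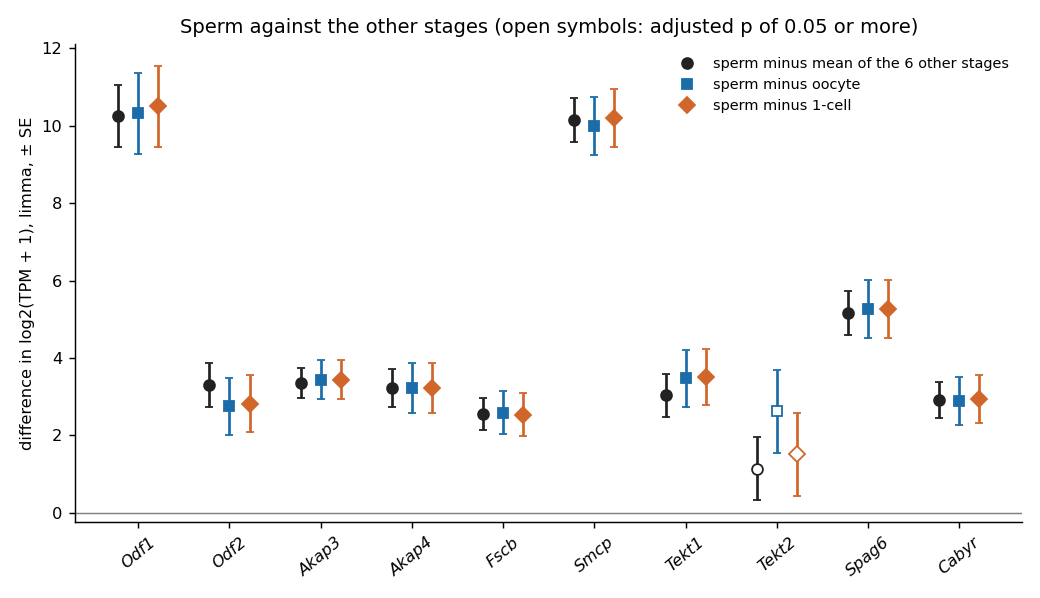
Difference in log2(TPM + 1) between sperm and the mean of the 6 other stages (circles), the oocyte (squares) and the 1-cell embryo (diamonds), with the standard error of the limma fit. Filled symbols passed an adjusted p of 0.05, and Tekt2 alone has open symbols, in all 3 comparisons.

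The question of which genes of the set differ between the gametes, and between sperm and the fertilized egg, was put to one limma fit over the 14 libraries, in which all stages share 1 estimate of the spread. Because that spread is pooled, the p-values do not measure how well the 2 sperm libraries agreed. In the comparison with the mean of the 6 other stages, 9 of the 10 genes were called higher in sperm, against 24.4% of the 14397 features tested. The median difference was 3.27 over the set and -0.23 over all features. Against the oocyte 9 of 10 were called higher, with 35.5% of all features called higher, and against the 1-cell embryo 9 of 10, with 31.4% of all features. The 3 comparisons share the sperm libraries and are not independent of each other. Tekt2 was the gene not called in each: its difference was 2.63 against the oocyte (SE 1.07; limma, adjusted p = 0.052) and 1.51 against the 1-cell embryo (SE 1.07; limma, adjusted p = 0.26). The 6 genes listed below 1 TPM in all libraries but sperm entered the test through their sperm values alone. With a single sperm library they no longer met the minimum of 1 TPM in 2 libraries, and 4 genes were still tested. When that minimum was lifted and both sperm libraries were kept, 9 of 10 were called higher than the mean of the other stages. In that setting 24.8% of 14836 features were called higher.

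Other genes of the tail, taken from lists by structure, were compared in the same way. Of 18 further genes of the fibrous sheath and outer dense fibres, 15 had a merged transcript, and 13 of these were called higher in sperm than in the mean of the others and none lower, with a median difference of 4.03. Over all features 24.4% were called higher and 21.1% lower. Of the 13, 7 were below 1 TPM in every library but sperm and so entered the test through sperm alone. Of the 8 others, 6 were called higher. Gpx4, a glutathione peroxidase that also forms part of the mitochondrial capsule, stood at 2065 and 2822 TPM in sperm, and Ropn1l, a protein that binds kinase anchors, at 281 and 1690 TPM. Oaz3, the antizyme of spermatids, stood at 1492 and 299 TPM. Of 17 further tektins and inner microtubule proteins 11 were tested, 7 were higher and 2 lower in sperm, with a median of 2.22, and 2 of the 7 were below 1 TPM outside sperm. Meig1 stood at 226 and 63.0 TPM in sperm and Enkur at 29.6 and 34.0 TPM. Of 37 dynein, radial spoke, nexin link and central pair genes only 15 had a merged transcript, of which 11 were higher and none lower, with a median of 2.00, and 3 of the 11 were below 1 TPM outside sperm. With no minimum the counts of these 3 lists were the same, and 24.8% of 14836 features were called higher and 20.2% lower. The radial spoke genes Rsph6a (60.9 and 194 TPM), Rsph1 (117 and 27.4 TPM) and Rsph3a (81.2 and 55.0 TPM) had the highest sperm levels of this list. Genes of the centriole and basal body were mixed: 10 of 15 were tested, 2 were higher and 3 lower in sperm, and their median was -0.12, so both counts were near the shares over all features. Cep164 stood at 36.5 and 290 TPM in sperm and Cetn2 at 77.1 and 11.9 TPM, and neither passed the test. Sclt1, at 73.5 and 41.6 TPM, was called higher (difference 1.96, SE 0.63; limma, adjusted p = 0.020).

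The question of whether the genes changed from one stage to the next was put to the 12 libraries from oocyte to blastocyst. Only Odf1, Odf2, Tekt1 and Tekt2 reached 1 TPM in 2 of these libraries, and none of the resulting 20 differences passed the limma test. At an unadjusted p under 0.05 there was 1, the fall of Tekt2 values from 4-cell to 8-cell (difference -2.74, SE 0.96; limma, adjusted p = 0.16). The share of all 13465 features called in either direction was 2.90% between oocyte and 1-cell. It was 29.9% at the next step, to the 2-cell stage, then 2.64% at the step to 4-cell and 3.75% at the step to 8-cell. At the last step, to the blastocyst, it was 1.99%. The Tekt2 difference between 4-cell and 8-cell was as large, and was called, when only those 4 libraries were fitted (SE 0.35; limma, adjusted p = 0.0054) or when the spread was weighted by stage (SE 0.47; limma, adjusted p = 0.00056). Without 2-cell replicate 1, the differences from 1-cell to 2-cell were 3.04 for Tekt2 and 1.83 for Tekt1, against 1.82 and 0.93 with both libraries. In the library left out Tekt2 stood at 6.91 TPM and Tekt1 at 0.0754 TPM, and the 2-cell markers were low for that stage. The differences of 3.04 and 1.83 rest on 1 remaining 2-cell library, in which Tekt1 stood at 2.77 TPM, and are descriptions.

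For the genes that reached 1 TPM in both libraries of a stage other than sperm, the genes of most similar pattern were sought over the 14 libraries and 10735 genes, by Pearson's r of log2(TPM + 1). These values are descriptions. For Odf1 the nearest were Irgc1 (r = 0.992) and Lrg1 (r = 0.991), which stood at 136 and 800 TPM and at 102 and 2134 TPM in sperm and were, like Odf1, higher in replicate 2. For Odf2 they were Fam221b (r = 0.947) and Wls (r = 0.944). For Tekt2 they were Ccdc189 (r = 0.927) and Catsperd (r = 0.927), a subunit of the sperm calcium channel. Ccdc189 stood at 16.3 and 1.60 TPM in sperm, 9.41 and 16.9 TPM in 2-cell and 16.5 and 28.5 TPM in 4-cell, so each 4-cell value exceeded each sperm value.

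The long-read pools showed which transcripts carried these levels. In sperm all 10 genes had long-read transcripts, 22 of the 8521 of that stage. The oocyte pool had 1 for the set, the 2-cell and 4-cell pools 3 each, and the 1-cell, 8-cell and blastocyst pools 0, which does not show absence because each stage had 1 pool. Outside sperm these transcripts belonged to Odf2 and Tekt2. The intron chain of the sperm transcript matched an annotated one in full for Odf1 (2 exons, 973 bases), Akap3 (6 exons, 3105 bases), Smcp (2 exons, 856 bases), Tekt1 (8 exons, 1383 bases), Tekt2 (11 exons, 1562 bases) and Spag6 (11 exons, 1840 bases).

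Akap4 had 2 sperm transcripts of 6 exons that differed in exon 1 and joined the same exon 2 at chrX:7070431-7070526. The distal exon 1 lies at chrX:7067489-7067656 and the proximal one at chrX:7068213-7068355, and the proximal form held 80.0% and 90.6% of the Akap4 TPM when only the sperm transcripts were quantified. The TGATGTCA match printed above for Akap4 belongs to the distal form. Cabyr had 2 sperm transcripts of 6 exons, 2139 and 1307 bases long, the longer of which was not annotated and held 51.1% and 65.8% of the Cabyr TPM. Fscb had 2 transcripts of a single exon on chromosome 12. The longer began at 64474892, 202 bases upstream of the GENCODE start, and its TPM fell outside the gene when only transcripts within annotated exons were counted. Smcp had a minor transcript with an unannotated exon 1 at chr3:92586453-92586911, which held 0.0604% and 0.219% of its TPM.

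The long reads of Tekt2 began at different places in the sperm, 2-cell and 4-cell pools. The gene lies on the minus strand of chromosome 4. The sperm transcript began at 126325710 with an exon of 66 bases. The 2-cell transcript began at 126325407, 303 bases further downstream, and the 4-cell transcripts at 126325474 and 126325409, which are 236 and 301 bases downstream. All of them had 11 exons. Both 4-cell transcripts and the 2-cell one were isoforms not in the annotation that shared introns with it. The sequences before the 2 starts are printed so that both can be read, with GTTGCC in capitals. The first window ends at the base before the sperm long-read start and holds 1 match, 74 bases from that start. A second match, on the other strand, covers the first bases of the sperm exon 1 (chr4:126325705-126325710). The window before the longer 4-cell form is the 108 bases up to the nearest annotated exon and holds none, but the second match lies 236 bases before that start, within the 250 bases searched elsewhere.
Tekt2, sperm start (chr4:126325711-126325830, minus strand): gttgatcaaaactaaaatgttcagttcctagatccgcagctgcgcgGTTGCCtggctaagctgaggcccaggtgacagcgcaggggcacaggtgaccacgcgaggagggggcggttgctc
Tekt2, 4-cell start (chr4:126325475-126325582, minus strand): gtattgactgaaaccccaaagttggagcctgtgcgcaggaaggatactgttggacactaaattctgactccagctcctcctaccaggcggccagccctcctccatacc

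**Figure D4:**
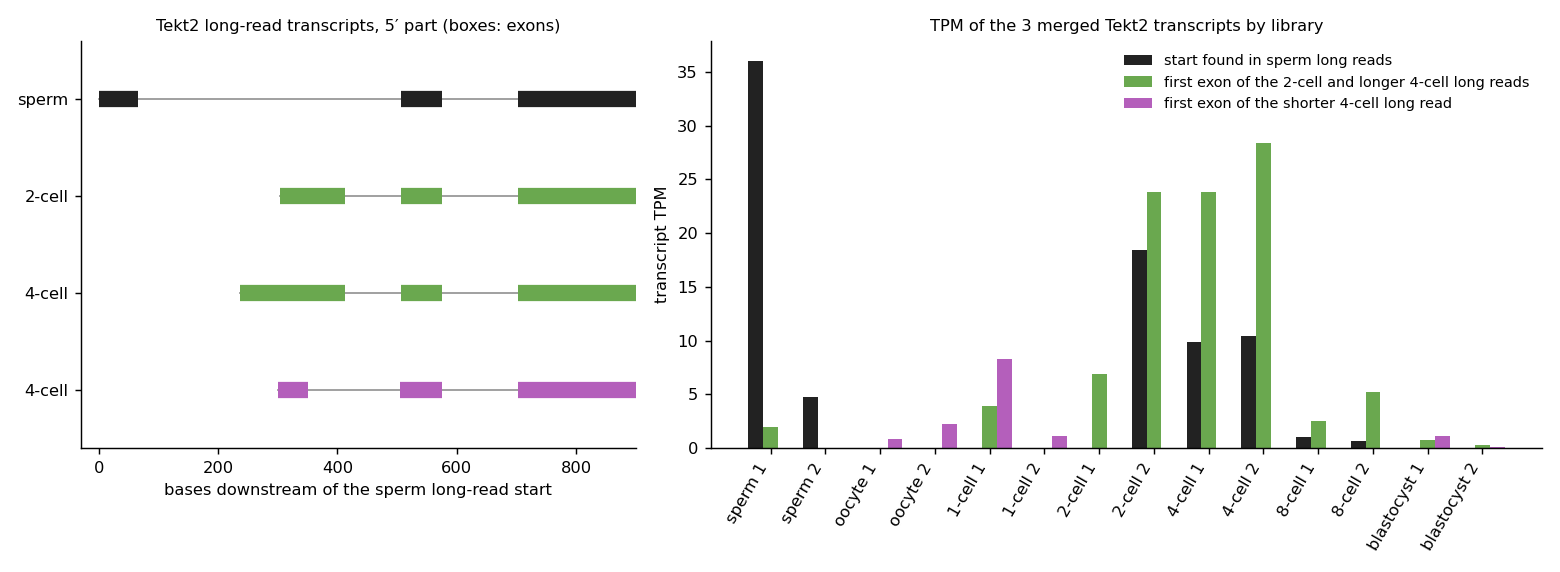
Left, the 5′ part of the 4 long-read transcripts of Tekt2, one line each, by distance in bases from the sperm start, with exons as boxes in the colours of the right panel. Right, TPM of the 3 merged Tekt2 transcripts in the 14 libraries; the sperm form leads in sperm, and the form with the longer embryonic exon 1 leads in the embryos from 2-cell to 8-cell.

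In the short reads, the merged transcript with the sperm start stood at 36.1 and 4.73 TPM in sperm and was called higher there than in the mean of the others (difference 2.79, SE 0.82; limma, adjusted p = 0.014), although the gene was not. Without sperm replicate 1 its difference was 1.44 (limma, adjusted p = 0.30). The same form was given 0 and 18.4 TPM in 2-cell, 9.91 and 10.4 TPM in 4-cell and 1.04 and 0.607 TPM in 8-cell, so the values of 2-cell replicate 2 and of both 4-cell libraries lay above that of sperm replicate 2. The transcript with the longer embryonic exon 1 stood at 1.93 and 0 TPM in sperm, 6.91 and 23.8 TPM in 2-cell, 23.8 and 28.4 TPM in 4-cell and 2.49 and 5.23 TPM in 8-cell. It was above both sperm libraries in every embryo library from 2-cell to 8-cell. Between the 1-cell and the 2-cell stage it rose by 2.66 (SE 0.81; limma, adjusted p = 0.029), while the third transcript, with the shorter embryonic exon 1, fell by 2.14 on the log2 scale (SE 0.63; limma, adjusted p = 0.025). These were 2 calls among the transcripts of the set, with 28.0% of 20250 transcripts called in either direction. Neither was called when only the 1-cell and 2-cell libraries were fitted or when the spread was weighted by stage.

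The division of reads among the 3 Tekt2 forms is less certain than their sum, since they differ only near the start. The sperm form had a TPM in 2-cell and 4-cell embryos in the merged set, although no long read of those pools had that start. When the 4-cell libraries were quantified over the 4-cell transcripts alone, the form with the shorter exon 1 was given 9.82 and 9.57 TPM, whereas the merged set gave it 0.000312 and 0.0100 TPM. The summed Tekt2 level of 4-cell embryos was 29.0 and 33.7 TPM in that quantification, against 33.7 and 38.8 TPM in the merged one.

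**Figure D5:**
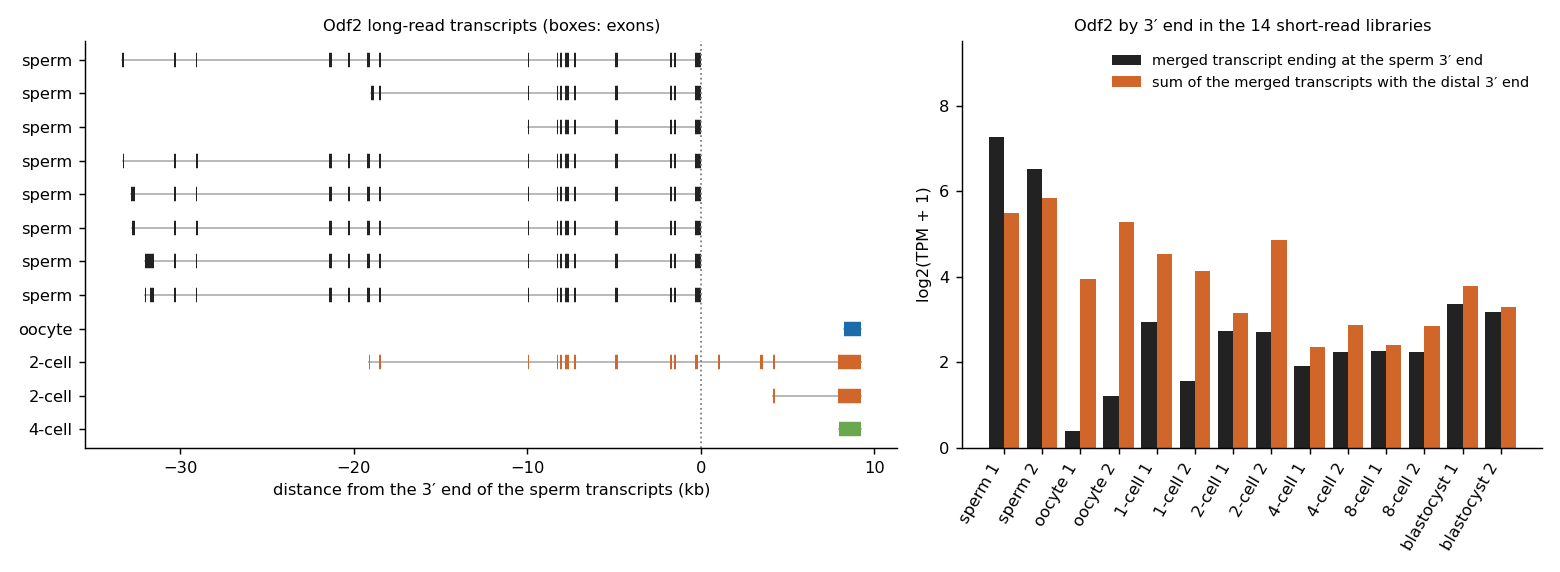
Left, the 12 long-read transcripts of Odf2 by distance in kb from the 3′ end of the sperm transcripts, one line each, with exons as boxes; the 8 sperm transcripts stop at that end and the 4 others run to a distal one. Right, log2(TPM + 1) of the merged transcript with the sperm 3′ end and of the sum of the 5 merged transcripts with the distal end; the sperm end leads in both sperm libraries only.

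The long reads of Odf2 differed at the 3′ end between the sperm pool and the others. All 8 sperm long-read transcripts stopped at base 29922536 of chromosome 2, whereas the oocyte, 2-cell and 4-cell transcripts ran to 29931745 or the base before it, 9209 bases further downstream. Both ends are annotated: 6 of the 25 GENCODE transcripts end within 300 bases of the sperm end and 3 within 300 bases of the distal one. The 8 sperm transcripts had 7 different starts and 9 to 17 exons, and 2 of them matched an annotated chain. Outside sperm, the oocyte and 4-cell transcripts were single exons of 946 and 1222 bases within the last exon, and the longest was a 2-cell transcript of 15 exons and 2902 bases.

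Merging the stages joined these pieces. Of the 6 merged Odf2 transcripts, 5 had 20 or 21 exons and ran from a sperm start to the distal end, and the whole intron chain of these 5 was found in no long-read pool. The merged transcript TCONS_00010937, with 11 exons, was the only merged one with the sperm end and was found whole in the sperm pool. It stood at 153 and 90.1 TPM in sperm and between 0.310 and 9.26 TPM elsewhere, and its difference from the mean of the other stages was 4.66 (SE 0.54; limma, adjusted p = 1.2e-05). It held 77.6% and 61.6% of the Odf2 TPM in sperm, 2.10% and 3.31% in oocytes, 23.1% and 10.6% in 1-cell, 41.3% and 16.5% in 2-cell, 37.1% to 46.8% in 4-cell and 8-cell embryos, and 41.8% and 48.0% in blastocysts. Sperm were highest and oocytes lowest in this share, and each stage from 2-cell to 8-cell overlapped with the next. The sperm end was therefore also quantified in embryos, where no long read had it. Of the 5 merged transcripts with the distal end, TCONS_00010936 was called higher in sperm (difference 3.92, SE 0.43; limma, adjusted p = 7.4e-06) and the other 4 were not. With only the sperm transcripts quantified, Odf2 stood at 183 and 149 TPM, close to the merged values. The form of 11 exons was then given only 12.9 and 1.63 TPM, or 7.00% and 1.09% of Odf2. Its merged values are therefore a level of the sperm end and not of that form alone. The largest of the sperm transcripts in replicate 1, with 9 exons, held 35.1% there and 0.0694% in replicate 2. The division within sperm was thus not shared by the replicates.

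Over all forms, 18 of the 20 merged transcripts of the set were tested, and 12 were called higher in sperm than in the mean of the others, against 20.5% of all 21568 transcripts tested. The 6 that were not called all belonged to Odf2 and Tekt2. The called transcripts of Akap3, Akap4, Fscb, Smcp, Spag6 and Cabyr stayed below 1 TPM outside sperm. They entered the test through their sperm values alone, so their calls are not separate evidence that they are higher in sperm.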

How the data were processed

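The authors trimmed the paired short reads, estimated TPM with Salmon (0.10.0) over the transcripts of all stages merged with Cuffmerge (2.2.1), and deposited TPM values per merged transcript and, separately, per transcript found by long reads at the same stage. The long reads were aligned to mm10 with GMAP. Both replicates of a stage were pooled for the long reads. Each stage has 2 short-read libraries, grouped by title; the labels and files number the 8-cell replicates in opposite ways and the title was followed. Nothing says whether batches shared animals, so p-values measure the spread between these libraries, pooled over the stages.

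A merged transcript was assigned to the gene with the longest exon overlap on its strand (18333 of 22612), and TPM was summed by gene. Genes and unassigned loci with at least 1 TPM in at least 2 libraries were tested with limma (3.58.1, trend) on log2(TPM + 1), two-sided, with Benjamini-Hochberg adjustment over all features and a threshold of 0.05. Sperm comparisons used 14 libraries and the steps between stages 12. The genes, lists and tests were chosen with earlier results of these data known. All 10 genes are named, with up to 3 genes of each other list by mean sperm TPM and the 2 genes nearest in pattern. Of the markers, Lyz2, Prm2, Tnp2 and the 4 epididymal and 3 red cell genes with a merged transcript are named with values. Gapdhs and Ldhc are named without. Spag6l was named after its values were seen, as the close relative of Spag6. Alternatives were other pseudocounts, filters, scalings, fits and assignments, a replicate block and each library left out. The test was tried on simulated data. The labels give DBA/2J and the protocol DBA/2N for the males. Promoter windows came from RefSeq (GRCm38.p6).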

Additional observations from a re-analysis of the deposited data

How the results depend on the processing

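The counts of genes called higher in sperm, 9 of 10 in each comparison, moved by over 1.5 times only where fewer genes were tested. With a minimum of 5 TPM, 6 genes were tested and 5 were called against the mean of the other stages and 5 against the 1-cell embryo, and 7 of 11 transcripts were called. With 1 library left out the counts lay between 3 and 9 against the mean, between 3 and 10 against the oocyte and between 3 and 9 against the 1-cell embryo, and for transcripts between 4 and 14. The lowest counts came without a sperm library, when 4 genes or 11 transcripts were left to test. A fit without a sperm library and with no minimum was chosen after seeing the data. It leaves 1 sperm library, so only its differences are given below. With no minimum and both sperm libraries, 9 of 10 genes were called against the mean, beside 24.8% of 14836 features called higher. Odf2 lost its call against the oocyte without oocyte replicate 1 (adjusted p = 0.059) and in a fit on those 4 libraries (adjusted p = 0.053).

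Tekt2 against the mean of the other stages ran from -0.24 without sperm replicate 1 (also with no minimum) to 2.53 without sperm replicate 2, and was called under none of 24 alternatives. Against the oocyte it was called under 8 of 24, among them a pseudocount of 0.1. Calls over the 5 steps numbered 1 in fits on the compared libraries, 1 with a spread weighted by stage, and between 0 and 2 with a library left out.

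The 2 Tekt2 calls from 1-cell to 2-cell, a comparison added after seeing the data, became 1 with a minimum of 5 TPM, 1 with quantile normalization, 0 in a fit on the compared libraries and 0 with a weighted spread, and over all transcripts of the set lay between 0 and 4 without a library (0 without 2-cell replicate 2, 4 without 2-cell replicate 1). The Tekt2 sperm-start transcript ran from -0.0004 without 2-cell replicate 2 to 4.28 without 2-cell replicate 1. The Odf2 transcript TCONS_00010933, near 0 against the mean of the other stages, changed sign with a pseudocount of 0.1 (0.31) and without sperm replicate 2 (0.67, also with no minimum), against -0.9005 without sperm replicate 1. The cause was not tested.

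Quantile normalization moved the median of all features from 0.91 to 0.041 against the oocyte and from 0.58 to 0.074 against the 1-cell embryo, and the share of higher among called features from 69.6% to 49.9% and from 62.9% to 50.9%. The set stayed at 9 of 10 in both. From 1-cell to 2-cell the median moved from 0.84 to -0.11.

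With the replicate number as a block, 9 genes were called in each sperm comparison, 0 over the steps, 12 transcripts against the mean and 2 from 1-cell to 2-cell, so no call was changed. Nothing says that the numbers mark shared animals, and deviations of same-numbered libraries correlated between -0.49 and 0.44 (median -0.055), above 0.1 for 6 of 21 pairs of stages. TPM keeps no read counts, so no limit of detection could be given for the values at 0.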
